A study of Mus musculus with 6 samples.

Results

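The Krüppel-like factors described here are 10 members of a family of zinc finger transcription factors, Klf2, Klf3, Klf4, Klf6, Klf7, Klf9, Klf10, Klf11, Klf12 and Klf13. They were taken by gene symbol from 22180 genes measured in mouse CD8+ T cells, and each had at least 1 probe set (a group of array probes read as a unit) annotated to that symbol alone. Whole-transcript Affymetrix arrays were hybridised with RNA of 6 samples, 3 labelled Dot1l knockout and 3 labelled wild type, all from C57BL/6 mice. The knockout came from mice with floxed Dot1l alleles crossed to a CD4-Cre line, whose recombinase acts in T cells as they develop. The CD8+ T cells were taken from peripheral lymph nodes and spleen with a magnetic kit. The sources used here give neither the age of the mice, nor whether the wild type mice carried floxed alleles or Cre, nor whether replicate arrays stand for different animals. P-values therefore cover the spread among these samples alone, and that spread may be technical.

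Krüppel-like factors bind GC-rich and CACCC-type DNA through a conserved set of zinc fingers at their carboxyl end, and differ in the part of the protein that recruits activators or repressors. In T cells, KLF2 is known for maintaining quiescence and for driving the receptors with which naive cells leave the thymus and enter lymph nodes. KLF4 restrains the division of naive CD8+ T cells, and KLF10 is induced by transforming growth factor beta and takes part in its feedback. Dot1l, the enzyme whose gene was targeted in this study, methylates lysine 79 of histone H3.

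Of the 10 members, Klf4 and Klf10 rose in the knockout-labelled arrays, 0 fell (0 also at an unadjusted p under 0.05), and 8 did not pass the test (limma with Benjamini-Hochberg adjustment over all 22180 genes, adjusted p under 0.05). Over all genes 5.50% passed, 4.30% as higher and 1.20% as lower. The unadjusted limma p was under 0.05 in 3990 of the 22180 genes. In 3 members, Klf4, Klf9 and Klf10, all knockout-labelled arrays read above all wild type arrays, and among all genes the groups did not overlap in 23.5%, with 13.7% higher and 9.78% lower. These 2 and 3 genes are few, and the family as a whole was not tested. The median log2 difference of the 10 members was 0.01, against -0.01 over all genes, and the median size of their differences was 0.08 against 0.13. The 8 members that did not pass had differences between -0.16 and 0.35.

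**Figure D1:**
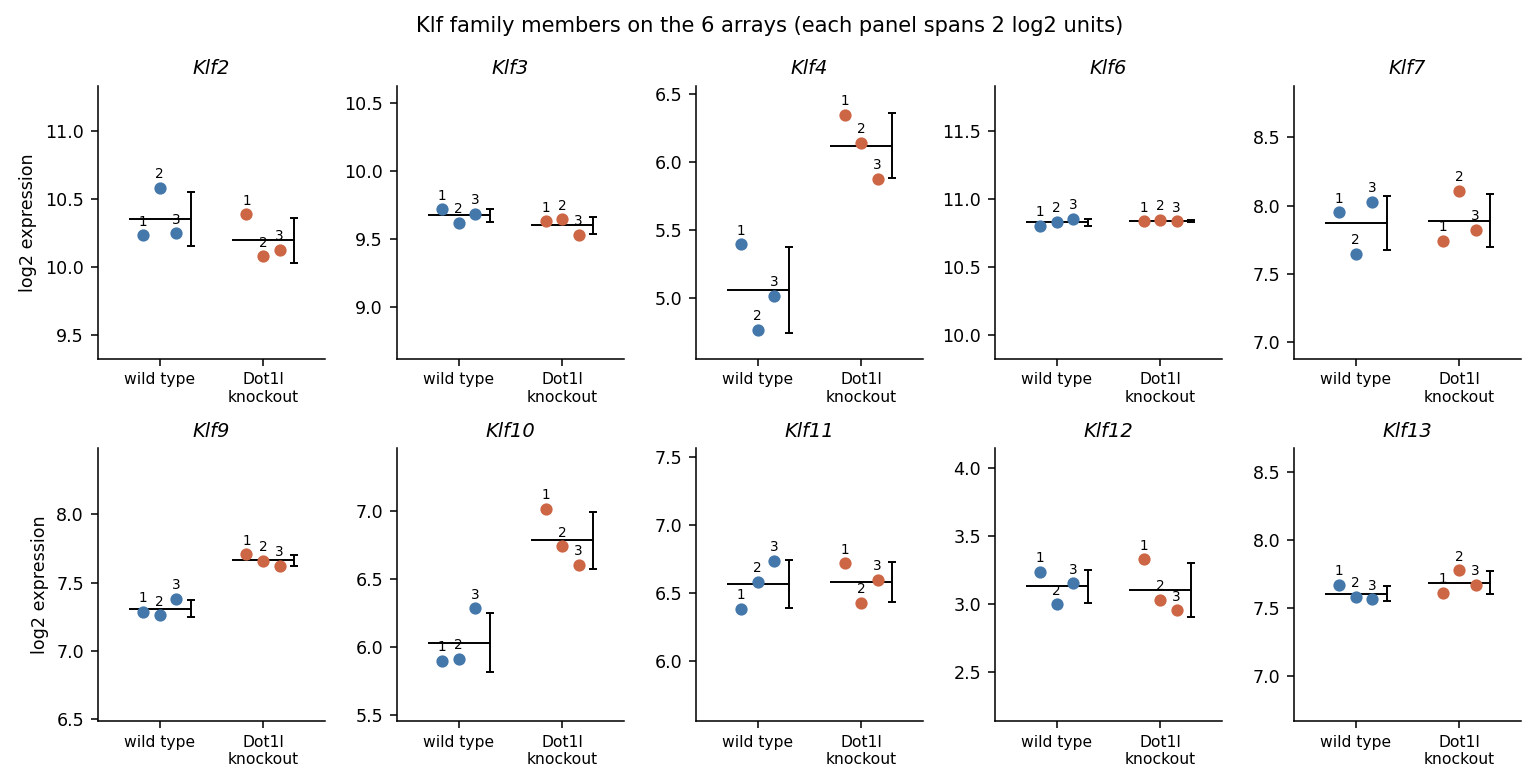
Log2 expression (vertical axes, each spanning 2 log2 units) of the 10 Klf genes on 3 wild type and 3 Dot1l knockout arrays. Points are single arrays with their replicate number, lines are group means and bars are SD; the groups separate in Klf4, Klf9 and Klf10 and overlap in the other members, and levels of different genes are not comparable because their probes differ.

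Klf4 showed the largest difference of the family. Its log2 values were 5.40, 4.77 and 5.02 in wild type replicates 1 to 3 and 6.35, 6.14 and 5.87 in the knockout-labelled replicates 1 to 3. The lowest knockout-labelled array stood 0.48 above the highest wild type array. The group means were 5.06 ± 0.32 and 6.12 ± 0.24 (SD, n = 3 in each group here and below), a log2 difference of 1.06 (SE 0.18, 95% interval 0.66 to 1.45, limma adjusted p = 0.00783). This is a 2.08-fold rise with an interval from 1.58 to 2.74, and by size it exceeded 98.8% of all genes. With any 1 of the 6 arrays left out Klf4 still passed, with differences from 0.91 to 1.23. It did not pass when each array's median over the probe sets without a gene symbol entered the fit (0.72, SE 0.33, adjusted p = 0.345). Those medians lay between 3.34 and 3.49 in wild type arrays and between 3.55 and 3.63 in knockout-labelled arrays, so this covariate moved with the groups, and its part in the result was not tested.

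Klf10, also known as TGF-beta inducible early gene, read 5.90, 5.91 and 6.28 in wild type arrays and 7.01, 6.74 and 6.60 in knockout-labelled arrays. The groups were apart by 0.32, with wild type replicate 3 nearest to the knockout-labelled arrays. Means of 6.03 ± 0.22 and 6.78 ± 0.21 gave a log2 difference of 0.75 (SE 0.15, 95% interval 0.42 to 1.08, limma adjusted p = 0.0174), a 1.68-fold rise. This call ended without wild type replicate 1 (0.69, adjusted p = 0.0546), without knockout replicate 1 (0.64, adjusted p = 0.0684) and without knockout replicate 2 (0.77, adjusted p = 0.0574). It also ended with adjustment over all probe sets of the table (adjusted p = 0.0545) and with the covariate named above (0.82, SE 0.29, adjusted p = 0.238).

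Klf9, a factor known to be induced by glucocorticoid and thyroid hormones, had the tightest separation of the groups. Its values were 7.28, 7.26 and 7.38 in wild type arrays and 7.71, 7.66 and 7.62 in knockout-labelled arrays. Every knockout-labelled array was higher than every wild type array by at least 0.24, while the arrays of a group spanned 0.12 and 0.086 log2 units. The log2 difference was 0.35 (SE 0.10, 95% interval 0.14 to 0.57), a ratio of 1.28, and did not pass (limma adjusted p = 0.0723). It passed with a variance trend and robust fitting (adjusted p = 0.033) and when genes below the median level were left out (adjusted p = 0.0313). In Klf4, Klf9 and Klf10 the highest value of the 6 was that of knockout replicate 1, as it was in Klf12, whose groups overlapped.

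**Figure D2:**
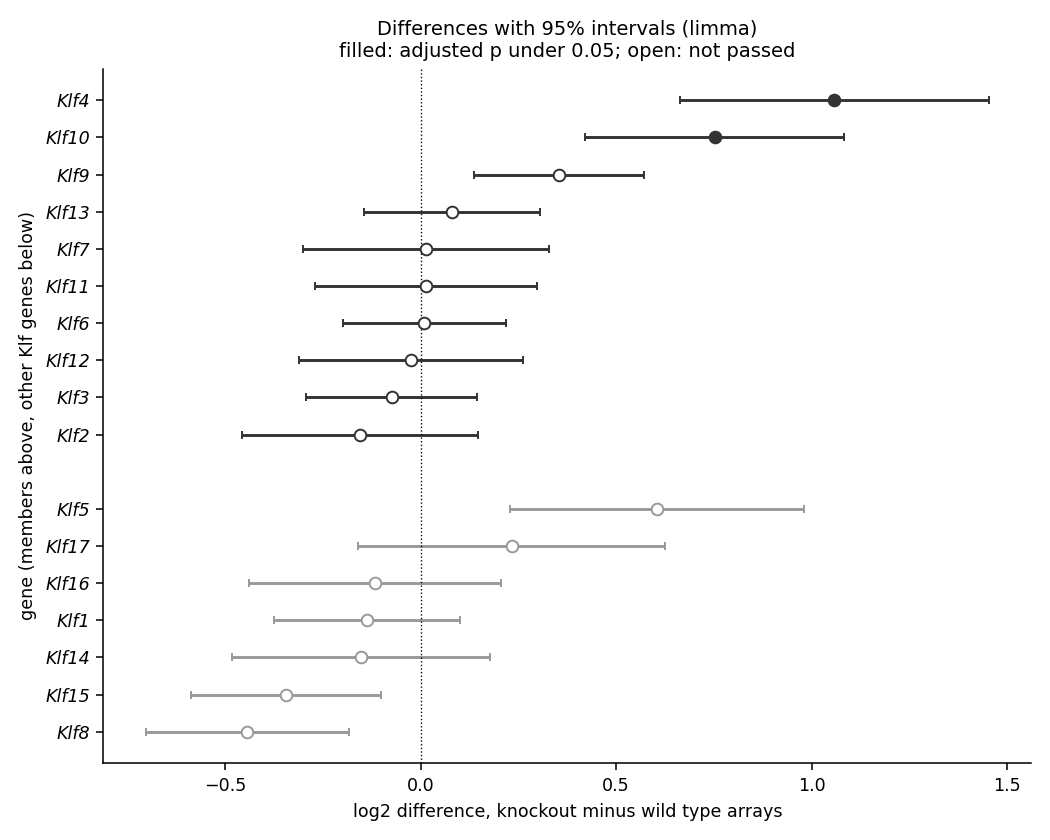
Log2 differences, knockout minus wild type arrays (horizontal axis), with 95% intervals from limma for the 10 members (black) and the 7 other Klf genes on the array (grey). Filled points passed at an adjusted p under 0.05, which were Klf4 at 1.06 and Klf10 at 0.75; the interval of Klf9 lies above 0 before adjustment for the number of genes.

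The RefSeq table of gene starts (mouse build GRCm38.p6) held 9 of the 10 members, on 9 different chromosomes; Klf10 was not among those matched. The 250 bases before the start are shown for Klf4 and Klf9, which separated the groups, and for Klf2, the best known member in T cells, so that their factor-binding letters can be compared. Klf4 is at chr4:55532476-55532725 on the minus strand, Klf9 at chr19:23140976-23141225 and Klf2 at chr8:72318812-72319061, both on the plus strand. Capitals mark GC boxes (GGGCGG) and CACCC boxes (CACCC), the classes of site that these factors themselves bind, on either strand.
Klf4: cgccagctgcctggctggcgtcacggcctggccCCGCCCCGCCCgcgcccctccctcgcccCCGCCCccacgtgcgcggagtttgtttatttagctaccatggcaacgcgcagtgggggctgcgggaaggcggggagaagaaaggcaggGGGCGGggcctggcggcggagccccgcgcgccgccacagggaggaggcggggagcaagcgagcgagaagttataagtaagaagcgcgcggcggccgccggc
Klf9: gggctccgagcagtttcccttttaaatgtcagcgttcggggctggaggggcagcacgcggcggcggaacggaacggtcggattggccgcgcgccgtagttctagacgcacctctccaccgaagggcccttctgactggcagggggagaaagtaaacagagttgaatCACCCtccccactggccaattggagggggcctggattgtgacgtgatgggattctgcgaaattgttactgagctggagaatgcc
Klf2: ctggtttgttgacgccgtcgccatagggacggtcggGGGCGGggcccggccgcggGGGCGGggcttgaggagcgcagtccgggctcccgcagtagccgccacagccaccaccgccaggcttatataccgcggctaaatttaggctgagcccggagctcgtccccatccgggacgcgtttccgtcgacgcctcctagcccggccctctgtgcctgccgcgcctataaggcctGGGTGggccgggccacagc
The Klf4 window held 4 GC boxes and 0 CACCC boxes, the Klf9 window 0 and 1, and the Klf2 window 2 and 1. No pair of these boxes overlapped between the motifs in these windows. GC boxes were found in 7 of the 9 member windows and in 32.7% of the 32851 windows of the table, and CACCC boxes in 6 of 9 and in 52.0%. The G and C content of the member windows lay between 48.0% and 78.4%, with a median of 71.2% against 52.4% over the table. The cyclic AMP response element (TGACGTCA) and the CArG box, the site of serum response factor, were in 0 of 9 member windows and in 1.55% and 1.47% of all windows. The E box (CACGTG) was in 3 of 9 member windows and in 6.02% of all, and the CCAAT box in 4 of 9 and in 33.8%. The Klf4 window held 1 E box and the Klf9 window 3 CCAAT boxes, which are not capitalised above. GC boxes stood in the windows of Klf4, which rose, and Klf2, which did not pass, and not in that of Klf9. Klf10, which rose, had no window, and the part of these boxes in the differences was not tested.

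Klf2 and Klf3 had negative differences that did not pass. Klf2 read 10.23, 10.58 and 10.25 in wild type arrays and 10.39, 10.08 and 10.13 in knockout-labelled arrays, and the groups overlapped through knockout replicate 1. Its log2 difference was -0.16 (SE 0.13, 95% interval -0.46 to 0.15, limma adjusted p = 0.616), so a ratio between 0.729 and 1.11 is compatible with these arrays. Klf3, a repressor that binds CtBP corepressors, read 9.72, 9.62 and 9.69 against 9.63, 9.65 and 9.53, a difference of -0.07 (SE 0.10, 95% interval -0.29 to 0.14). Its values overlapped narrowly and the interval limits any fall to a ratio of 0.817.

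Klf6, Klf13 and Klf7 were well above background in every array and did not pass. Klf6, a broadly expressed factor that responds early to stimulation, was the most even member. Its values were 10.80, 10.83 and 10.86 in wild type and 10.84, 10.85 and 10.84 in knockout-labelled arrays, a difference of 0.0097 (SE 0.09, 95% interval -0.20 to 0.22) that turned to -0.04 after median centring. Klf13, first known as a factor that drives late Ccl5 transcription in T cells, read 7.67, 7.58 and 7.56 against 7.61, 7.78 and 7.67, with a difference of 0.08 (SE 0.10, 95% interval -0.14 to 0.31). Klf7 varied within both groups, with 7.95, 7.65 and 8.03 in wild type and 7.74, 8.11 and 7.82 in knockout-labelled arrays. Its difference was 0.01 (SE 0.14, 95% interval -0.30 to 0.33), and its sign turned with median centring (-0.04) and another quantile normalization (-0.03). A further Klf7 probe set read 2.62 ± 0.10 in wild type and 2.41 ± 0.06 in knockout-labelled arrays, a difference of -0.20 (adjusted p = 0.376 over all probe sets). Those values lie below 3.84, the 95th percentile of the mean levels of 1390 olfactory and vomeronasal receptor genes, which served as a guide to background.

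Klf11 and Klf12 also overlapped between the groups. Klf11, a relative of Klf10 that likewise recruits the Sin3a corepressor, read 6.39, 6.58 and 6.73 in wild type and 6.72, 6.43 and 6.60 in knockout-labelled arrays. The difference of 0.01 (SE 0.13, 95% interval -0.27 to 0.30) stands beside 0.75 for Klf10, though it became -0.04 after median centring and -0.10 after another quantile normalization. Klf12, a repressor of the AP-2alpha gene, read 3.24, 2.998 and 3.15 against 3.33, 3.03 and 2.95, below the background guide in all 6 arrays. Its difference of -0.02 (SE 0.13) therefore says little about the gene in these cells.

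The 7 other Klf genes on the arrays contributed 0 calls at a limma adjusted p under 0.05. An unadjusted p under 0.05 was found in 3990 of all 22180 genes and in 3 of these 7. Klf8 had the smallest p among them, at 3.38 ± 0.09 in wild type and 2.94 ± 0.16 in knockout-labelled arrays (log2 difference -0.44, SE 0.12, adjusted p = 0.0605, and 0.0452 after median centring), all below the background guide. Klf5, a factor of proliferating epithelium, read 4.05, 3.56 and 4.05 against 4.56, 4.68 and 4.23, with a difference of 0.60 (SE 0.17, adjusted p = 0.076, and 0.0472 without the genes below the median level). The related SP factors, which bind the same GC boxes, gave 0 calls among 8 measured genes (1 at an unadjusted p under 0.05), with a median difference of 0.05. The SP genes with the smallest p were Sp8 (0.28, adjusted p = 0.199), which was below the background guide, and Sp1 (0.15, adjusted p = 0.473). Cofactors that KLF proteins recruit gave 0 calls among 13, with Hdac2 (0.28, adjusted p = 0.17) and Hdac3 (0.26, adjusted p = 0.203) the nearest, 3 genes at an unadjusted p under 0.05 and a median of 0.0065.

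Among 12 genes that act upstream of KLF factors, 2 rose, 1 fell and 9 did not pass, with a median difference of 0.13. The shares over all genes were 4.30% higher and 1.20% lower. Wwp1, a ubiquitin ligase that targets KLF2 and KLF5 for degradation, rose from 8.23 ± 0.21 to 9.04 ± 0.09 (log2 0.81, SE 0.13, limma adjusted p = 0.00572). Smurf1, another ubiquitin ligase reported to act on KLF2, fell from 6.75 ± 0.14 to 6.17 ± 0.10 (-0.58, SE 0.11, adjusted p = 0.0169). Mef2a, a MADS-box factor of the family that activates Klf2 downstream of the kinase ERK5, rose by 0.43 (SE 0.10, adjusted p = 0.0409). The call of Smurf1 ended without wild type replicate 1 or 3 and without knockout replicate 2 or 3 (adjusted p = 0.0512, 0.0663, 0.0812 and 0.065). Of the fits without 1 array, Mef2a passed only in that without wild type replicate 1 (0.0797 to 0.147 in the other fits). Foxo1, which activates Klf2 in naive T cells and is named here after its value was seen, differed by 0.26 (adjusted p = 0.189). Its probe sets disagreed, since the dimmest Foxo1 probe set gave -0.32. With the unnamed probe sets' median as covariate 0 of the 12 passed in limma (3 at an unadjusted p under 0.05), and Wwp1 differed by 0.50 (adjusted p = 0.311) and Mef2a by 0.25 (adjusted p = 0.548).

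Receptors and adhesion molecules of homing and egress, several of them under KLF2 control, gave 1 rise, 0 falls and 6 genes that did not pass among 7 measured. Of all genes, 4.30% passed as higher and 1.20% as lower. The rise was Itgal, the alpha chain of the integrin LFA-1, from 9.73 ± 0.07 to 10.20 ± 0.02 (log2 0.47, SE 0.10, limma adjusted p = 0.0211). Of the fits without 1 array, Itgal passed only in that without wild type replicate 2 (adjusted p = 0.0573 to 0.0966 in the other fits), and it did not pass with the covariate (0.57, adjusted p = 0.17). S1pr1, the egress receptor that KLF2 drives directly, read 11.04 ± 0.04 in wild type and 10.99 ± 0.03 in knockout-labelled arrays (-0.05, SE 0.09, adjusted p = 0.831). Ccr7, the lymph node homing receptor, differed by -0.26 (SE 0.10, adjusted p = 0.196, and 0.0267 with a variance trend and robust fitting). S1pr1 and Ccr7 are named after their values were seen.

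Of 8 other genes linked to individual KLF factors, 5 rose, 0 fell and 3 did not pass, with a median difference of 0.67. Whether each is a direct target was not tested. Over all genes 5.50% passed, 4.30% as higher, and this list was chosen with earlier results of these data known. Eomes and Cxcr3, both known to be raised in T cells that lack KLF2, rose by 1.27 (SE 0.10, adjusted p = 9.86e-05) and 0.79 (SE 0.12, adjusted p = 0.00543). Ccl5, the chemokine gene tied to KLF13, rose from 11.14 ± 0.14 to 11.91 ± 0.06 (0.77, SE 0.11, adjusted p = 0.00344). Cdkn1a, the cell cycle inhibitor gene that KLF4 activates, rose by 0.69 (SE 0.14, adjusted p = 0.0239). Smad7, the inhibitory Smad that KLF10 represses in other cells, rose by 0.66 (SE 0.12, adjusted p = 0.0133). The call of Cdkn1a ended without wild type replicate 1 and without knockout replicate 1, 2 or 3 (adjusted p = 0.0576, 0.0973, 0.0746 and 0.0831), and that of Smad7 without knockout replicate 2 or 3 (0.0569 and 0.069). With the covariate Eomes and Ccl5 passed, while Cxcr3 (adjusted p = 0.0549), Smad7 (adjusted p = 0.234) and Cdkn1a (0.40, adjusted p = 0.516) did not. Klf2 and Klf13, named with some of these genes, did not themselves pass.

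**Figure D3:**
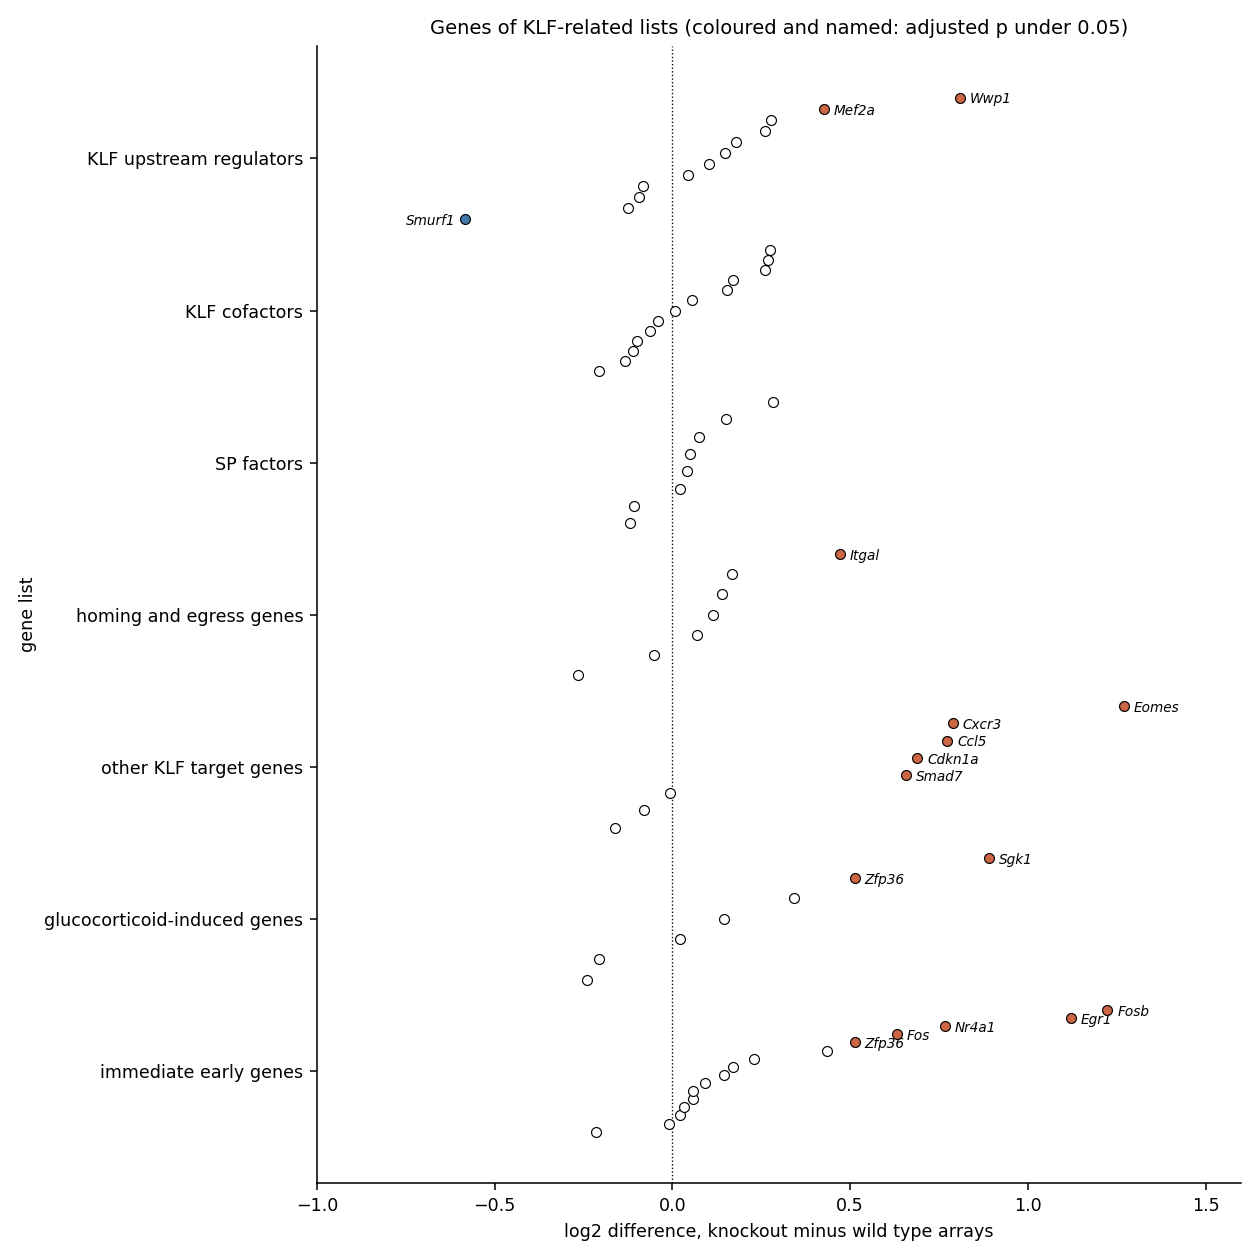
Log2 differences, knockout minus wild type arrays (horizontal axis), of each measured gene in 7 lists related to KLF factors (rows; genes are stacked by size within a list). Coloured and named points passed at an adjusted p under 0.05. They were 5 of 8 in the list labelled other KLF target genes, 5 of 16 in the immediate early list and none among SP factors and cofactors. Over all genes 5.50% passed, and the lists were chosen with earlier results of these data known.

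Klf9 is known to respond to glucocorticoids and Klf4 to growth stimuli, and genes that respond to each were read beside them. Of 7 glucocorticoid-induced genes 2 rose, 0 fell and 5 did not pass, with a median of 0.14. Sgk1, a kinase, rose by 0.89 (SE 0.11, adjusted p = 0.00161) and Zfp36, an RNA-binding protein that destabilises cytokine transcripts, by 0.51 (SE 0.10, adjusted p = 0.0177), and Zfp36 and Dusp1 belong to the next list as well. Immediate early genes respond within minutes to stimulation and to the dissociation of tissue. Over all genes 4.30% passed as higher and 1.20% as lower. Of 16 immediate early genes 5 were higher, 0 were lower and 11 did not pass, with a median of 0.16. Besides Zfp36 these were Fosb (1.22, SE 0.13), Egr1 (1.12, SE 0.14), Nr4a1 (0.77, SE 0.10) and Fos (0.63, SE 0.10), with adjusted p from 0.000838 to 0.00572. The mean log2 level of the list ran from 7.98 to 8.17 in wild type arrays and from 8.30 to 8.46 in knockout-labelled arrays, so the groups were apart in this list as in Klf4, Klf9 and Klf10. They were also apart in the glucocorticoid-induced list (7.43 to 7.52 and 7.61 to 7.74), the upstream regulators and the genes linked to KLF factors. They overlapped in the other Klf genes, SP factors, cofactors and homing genes. Within the wild type group the list was highest in replicate 2, where Klf4 and Klf9 were lowest, while Klf10 was lowest in replicate 1. Within the knockout-labelled group the list was highest in replicate 1 (8.46, against 8.30 and 8.40). So were 6 of the 10 members, namely Klf4, Klf9 and Klf10 and also Klf2, Klf11 and Klf12, whose groups overlapped. The part of the list in the differences of Klf4, Klf9 and Klf10 was not tested. The call of Zfp36 ended without wild type replicate 3 and without knockout replicate 1, 2 or 3 (adjusted p = 0.0682, 0.0794, 0.0621 and 0.0705). With the covariate Sgk1 passed among the glucocorticoid-induced genes and Fosb among the immediate early genes, 1 of each list. At an unadjusted limma p under 0.05, in either direction, there were 2 glucocorticoid-induced and 11 immediate early genes with the covariate. Without it there were 3 and 6. Over all 22180 genes there were 3447 with it and 3990 without it.

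The genes whose profile over the 6 arrays was most like that of Klf4 were found by the root-mean-square distance of centred log2 values. The closest were 4930596I21Rik (0.0962), Qpct (0.121), Rhoq (0.124) and Mir27a (0.126), against a root-mean-square size of 0.576 for Klf4 itself. Their log2 differences were 1.001, 1.05, 1.12 and 1.11, and a similar difference and order of arrays follow from the way they were chosen. 4930596I21Rik read 3.63, 2.95 and 3.26 in wild type arrays, all below the background guide of 3.84, so its difference is set against a probe set not above background, and it passed in 2 of the 6 fits without 1 array. Within 2 times its distance lay 26 genes.

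Over all genes tested, 954 genes rose (4.30%) and 266 fell (1.20%), and after another quantile normalization 625 rose and 470 fell. Dot1l itself did not differ beyond its spread (7.20 ± 0.25 in wild type and 7.30 ± 0.04 in knockout-labelled arrays, limma adjusted p = 0.765), and the part of the gene that its probes cover, relative to the deleted part, is not known here, so this does not test the labels. The CD8 T cell markers were bright, with Cd8a at 11.12 ± 0.12 in wild type and 10.95 ± 0.07 in knockout-labelled arrays, while Cd4 read 3.79 ± 0.22 and 3.86 ± 0.08, and Cd5 fell by 1.01. The summed linear level of 7 CD8 T cell markers was 13219 to 13995 in wild type and 12590 to 12707 in knockout-labelled arrays, and 6 of the 7 did not pass. Because the samples are bulk RNA, fewer cells of a type and less RNA per cell cannot be told apart. Klf4 is also expressed in monocytes and B cells, whose markers are given beside its rise. The marker counts below stand beside 4.30% of all genes higher and 1.20% lower. Of 12 monocyte, macrophage and neutrophil markers 1 rose (Itgam, 0.60), 1 fell (Mpo, -0.71) and 6 were below the background guide in both groups, and their summed linear level ran from 175 to 191 in wild type and from 164 to 179 in knockout-labelled arrays. Of 11 B cell markers 3 rose (Cd22, 1.29; Ms4a1, 1.13; Cd79a, 0.86), Ighm fell (-0.60) and 4 were below the guide in both groups, with a summed level, mostly Ighm, of 2139 to 2452 in wild type and 1594 to 1750 in knockout-labelled arrays. Ms4a1 was below the guide in all 3 wild type arrays, at 3.24 ± 0.10, so its difference is set against background. The probe sets of Ighm disagreed in size, with -1.06 (SE 0.39, adjusted p = 0.18) for their mean and -0.27 (SE 0.37, adjusted p = 0.78) for the dimmest, and neither passed. The mean log2 level of these B cell markers went the other way, from 4.64 to 4.87 in wild type and from 4.97 to 5.17 in knockout-labelled arrays. Of 7 dendritic cell markers Itgax rose (1.14) and 5 were below the guide. The summed level of that list, mostly Cd209a (log2 8.10 and 7.73, not passed), was 303 to 406 in wild type and 299.8 to 328 in knockout-labelled arrays. All 5 measured NK cell markers had positive differences, as did 47.2% of all genes, and their median was 0.43. An unadjusted limma p under 0.05 was found in 3990 of all 22180 genes and in 3 of these 5, of which Tyrobp passed (0.43). The summed level of the NK markers was 116 to 142 in wild type and 146 to 172 in knockout-labelled arrays. Their mean log2 level was 4.29 to 4.62 and 4.80 to 4.99, so the groups did not overlap. Mean log2 levels did not overlap in the B cell list either. The same held, with lower levels in knockout-labelled arrays, for the CD8, CD4 and gamma delta lists and, narrowly, the monocyte list. Of 6 CD4 T cell markers Il2ra rose (0.69) and Cd40lg fell (-0.88), to 3.05 ± 0.09 and below the guide in all 3 knockout-labelled arrays. The summed level of that list was 325 to 413 in wild type and 279 to 299 in knockout-labelled arrays. It was mostly Ctla4, at log2 8.03 and 7.48, which did not pass. Of 4 gamma delta and innate-like T cell markers Cd163l1 fell (-0.79), and the summed level was 72.9 to 91.6 against 65.6 to 67.7. With each array left out in turn, Cd79a and Mpo still passed in 1 fit of 6, Itgam and Cd163l1 in 2, Il2ra in 3 and Tyrobp in 0. Erythroid, platelet and stromal markers gave 0 calls in limma among 3, 5 and 6 genes, with 0, 0 and 1 at an unadjusted p under 0.05. The part of these markers in the rise of Klf4 and Klf10 was not tested.

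**Figure D4:**
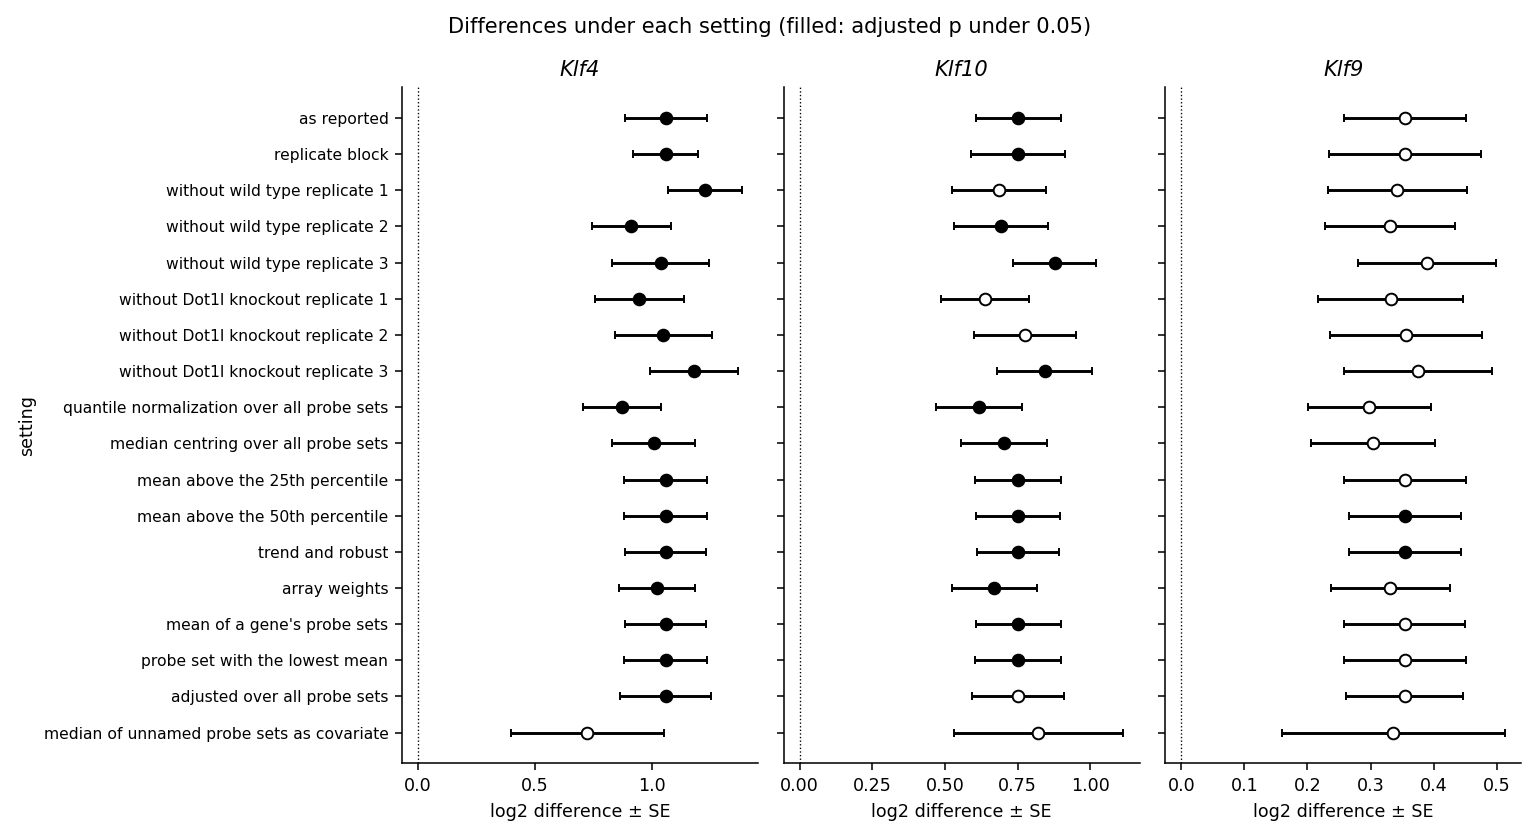
Log2 differences ± SE, knockout minus wild type arrays (horizontal axes), of Klf4, Klf10 and Klf9 under each processing setting (rows). Filled points passed at an adjusted p under 0.05. Klf4 passed in all settings drawn except that with the covariate. All differences of these 3 genes were above 0, though some settings cannot change a difference.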

How the data were processed

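The deposited log2 expression values were made by the authors with RMA under R version 3.1.1, according to the submitters' processing notes. This method corrects background, quantile-normalizes arrays and summarises probes by median polish. Its settings, any later centring or filtering and the annotation version are not stated in those sources. It compresses differences of dim genes, so their folds may be understated. For arrays the number of samples limits the precision.

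Of 41345 probe sets, 23521 named exactly 1 gene symbol, 1814 several and 16010 none in the platform annotation used here. For genes with several probe sets, the brightest by mean over the 6 arrays stood for the gene, leaving 22180 genes. Groups and replicate numbers came from sample titles. Knockout minus wild type was fitted with limma 3.58.1 in R 4.3.3 (lmFit, eBayes, no covariate) and adjusted by Benjamini-Hochberg over all genes. The procedure was tested on simulated data with independent noise and planted differences. Those data held no shift of whole arrays, so this test does not bear on such shifts here.

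The members, gene lists and tests were chosen with earlier results of these data known. Named genes were all members, list genes that passed, otherwise the 2 smallest p per list, marker genes that passed, Dot1l, and the 4 genes most like the member with the largest rise. Alternatives were the replicate block, leaving out arrays, rescaling, level filters, variance model, array weights, probe set choice, adjustment over all probe sets, a covariate and thresholds. Over all genes, samples with the same replicate number did not deviate together, which cannot tell whether they shared a day or batch.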

Additional observations from a re-analysis of the deposited data

Results flagged for a closer look

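Probe sets without a gene symbol lie outside the comparisons, and the median of each array over them was higher in the knockout-labelled arrays. The mean of their array medians was 3.43 in wild type and 3.59 in knockout-labelled arrays, a difference of 0.17 on the log2 scale, and each of the 3 knockout-labelled arrays exceeded each of the 3 wild type arrays. The median difference of the single probe sets was smaller, at 0.051, and 5.32% of them passed the test, against 5.50% of genes. The difference at the 75th percentile of their levels was 0.36. What these probe sets measure is not given in the annotation used here.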

How the results depend on the processing

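Leaving out 1 array gave 1 to 2 members that passed, 615 to 1307 genes over the whole table and 9 to 14 genes over the 8 lists, against 2, 1220 and 15. With adjustment over all probe sets 1 member and 751 genes passed. With the median of unnamed probe sets as covariate 0 members (limma, and 1 at an unadjusted p under 0.05), 216 genes and 4 list genes (Eomes, Ccl5, Sgk1 and Fosb) passed, and at an adjusted p under 0.01 these counts were 1, 534 and 9. Klf4 kept its direction in 19 of 19 alternatives and its call in 18, Klf10 its direction in 19 and its call in 13, and Klf9, which did not pass, crossed the threshold in 3. The replicate block, level filters, variance model, adjustment over all probe sets and thresholds leave a difference unchanged. So does the probe set choice for these genes, which have 1 probe set each. In those alternatives the direction could not turn.

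Sign changes were confined, among members, to differences that did not pass. Klf7 became -0.031 with quantile normalization, -0.035 with median centring, -0.029 with array weights, -0.093 with the mean of its probe sets, -0.20 with its dimmer probe set and -0.45 with the covariate. Klf11 became -0.10, -0.037 and -0.029 with quantile normalization, median centring and array weights, and Klf6 -0.040 with median centring. With the covariate Klf2 became 0.32, Klf13 -0.047 and Dot1l -0.26. Foxo1 became -0.032 with the mean of its probe sets and -0.32 with the dimmest. When 1 array was left out, Klf6 ranged from -0.0035 to 0.022, Klf7 from -0.098 to 0.090, Klf11 from -0.077 to 0.097, Klf12 from -0.14 to 0.051 and Dot1l from -0.020 to 0.23. The cause of these shifts was not tested.

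With the replicate number as a block 2 members passed, 912 genes over the table and 12 genes of the lists. Itgal (adjusted p = 0.0722), Mef2a (0.112), Zfp36 (0.0572) and the NK cell marker Tyrobp (0.098) lost their calls with this block, and no other list or marker gene named as passing did. Correlations over all genes of the deviations of same-numbered arrays from their group means were -0.07, -0.16 and -0.07. With 3 arrays in each group this cannot tell whether same-numbered samples shared a day or batch. Klf12 was not in the fit of genes above the median level. Signal over background limits Klf12 and the dimmer Klf7 probe set.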
